A study of Homo sapiens with 27 samples.

Results

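The genes described here are 8 brakes on mTORC1, the protein kinase complex through which cells match growth to nutrients: SESN1, SESN2, SESN3, DDIT4, DEPTOR, TSC1, TSC2 and AKT1S1. They were chosen by symbol, all 8 were found among the 13523 genes of the expression table, and all 8 passed the filter on low values. Polyadenylated RNA of 501mel, a human melanoma cell line rich in the transcription factor MITF, was profiled as 3′ end libraries (QuantSeq Forward), in which a read marks the 3′ end of a transcript. WT (unedited) cells were not treated, were starved of amino acids for 12 h in HBSS, a salt solution that still supplies glucose, or were given 250 nM Torin for 12 h, which blocks the kinase mTOR itself. TFE3 KO, TFEB KO and DKO cells, which lack TFE3, TFEB or both of these relatives of MITF, were kept for 12 h without drug or with 250 nM Torin. The knockouts were made with Cas9, and per the study's methods each line that was profiled is a single clone, so clone and genotype cannot be told apart. Each group has 3 libraries except WT HBSS and WT Torin, which have 2, because WT HBSS replicate 3 and WT Torin replicate 1 were deposited as the same column of values, which was left out of both groups. Nothing states that the libraries of a group came from separate cultures, so the tests measure the spread between libraries.

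mTORC1 sits on the lysosome when amino acids are plentiful and drives protein synthesis and growth. The 8 genes restrain it at several points. Sestrins bind the GATOR2 complex, SESN1 and SESN2 when leucine is scarce, and so keep the Rag GTPases from recruiting mTORC1. DDIT4 (REDD1) releases the TSC complex from inhibition, and TSC1 and TSC2 form that complex, which switches off RHEB, the direct activator of the kinase. DEPTOR and AKT1S1 (PRAS40) are inhibitory proteins bound to the complex itself. SESN2 and DDIT4 are textbook targets of ATF4, the transcription factor of the amino acid and stress response, SESN1 and SESN2 of p53, SESN3 of FOXO factors, and DDIT4 of hypoxia factors.

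Levels are given as normalised read counts, that is, reads scaled to the size of the library (CPM scale). The 25 libraries held 4147050 to 6526392 reads in the table, and a gene with no read in a library could still have a level of up to 0.460 to 0.711 on this scale (3 reads, counting error only). Log2 fold changes were estimated with limma on log2(value + 1) and are given ± their standard error. A gene passed at a Benjamini-Hochberg adjusted p under 0.05 over 13052 genes, and was called when its absolute log2 fold change was also at least 1. TFE3 stood at 24.0 ± 0.285 (SD, n = 3) in WT, 6.30 ± 1.27 in TFE3 KO and 6.35 ± 0.470 in DKO cells. TFEB stood at 3.25 ± 0.827 in WT, 1.11 ± 0.485 in TFEB KO and 0.661 ± 0.457 in DKO cells, and also at 0.681 ± 0.764 in TFE3 KO cells. In WT HBSS it stood at 29.2 (mean of 2 libraries), a log2 rise of 2.85 ± 0.359 (limma adjusted p = 4.43e-09). The 6 melanocyte markers were present in every library, MITF from 532 to 1454. Of 7 fibroblast, keratinocyte and leukocyte markers, 5 were not listed and COL1A1 and LUM did not exceed 5.06 and 3.98. The melanocyte markers moved with treatment in WT, 6 of 6 higher in HBSS, and 3 higher and 1 lower under Torin. In the knockout lines Torin gave 5 higher and 1 lower in TFE3 KO, 2 and 1 in TFEB KO and 3 and 1 in DKO cells. Against WT without drug, none of the 6 passed in TFE3 KO cells (limma), 1 was higher in TFEB KO cells, and 1 was higher and 3 were lower in DKO cells. MITF was among these 3, at 556 ± 34.9 (SD, n = 3) against 762 ± 37.3 in WT (log2 -0.46 ± 0.0611, limma adjusted p = 1.79e-07). Of the 2 listed markers of other cells, LUM passed as lower under Torin in WT and TFE3 KO cells, and COL1A1 was called higher in TFEB KO and DKO cells than in WT or TFE3 KO cells without drug. Under Torin, the melanocyte markers against WT were 3 higher in TFE3 KO, 2 lower in TFEB KO, and 1 higher and 3 lower in DKO cells, and LUM was higher in TFEB KO cells. The part of such shifts in the results on the brakes was not tested.

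The upstream regions of SESN2, DDIT4 and TSC2 are shown because SESN2 and DDIT4 moved together across the groups, whereas TSC2 moved the other way under Torin. They are RefSeq sequences (GRCh38.p14, the hg38 build), 5′ to 3′ along the + strand, the strand of all 3 genes, and they run from 250 bases to 1 base before the start site for SESN2, from 219 to 6 for DDIT4 and from 118 to 19 for TSC2. The capitals mark ACGTG, the core of a hypoxia response element, in DDIT4, and in TSC2 the E-box CACGTG, the motif of MITF, TFE3 and TFEB, running into a match to TGATGNAA, the composite element of ATF4.
SESN2, chr1:28259268-28259517: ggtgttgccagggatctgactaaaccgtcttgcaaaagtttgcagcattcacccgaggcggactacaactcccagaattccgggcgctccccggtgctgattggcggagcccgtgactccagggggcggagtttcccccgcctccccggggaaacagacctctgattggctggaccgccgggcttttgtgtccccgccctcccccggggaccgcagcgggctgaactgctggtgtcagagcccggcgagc
DDIT4, chr10:72273705-72273918: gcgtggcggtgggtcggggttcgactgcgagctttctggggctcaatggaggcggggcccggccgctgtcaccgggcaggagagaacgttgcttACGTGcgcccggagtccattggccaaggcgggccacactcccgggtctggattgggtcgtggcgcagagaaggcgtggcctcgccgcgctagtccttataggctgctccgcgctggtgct
TSC2, chr16:2047867-2047966: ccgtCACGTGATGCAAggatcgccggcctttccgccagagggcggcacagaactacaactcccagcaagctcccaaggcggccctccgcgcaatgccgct

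RefSeq promoter windows, each 250 bases before to 50 after a start site, were at hand for 6 of the 8 genes (SESN1, SESN2, SESN3, DDIT4, TSC1 and TSC2) and not for DEPTOR and AKT1S1. Both strands were searched for 4 motifs, and their share of all 35116 windows was counted. The E-box CACGTG was in 7.256% of the windows. The related E-box CATGTG was in 11.1%. The composite element TGATGNAA was in 3.617%. The core ACGTG, which every CACGTG also holds, was in 21.41%. Within the windows of the 6 genes, CACGTG lay only in a TSC2 window, at chr16:2047871-2047876. There it shares 2 bases with the TGATGNAA match at chr16:2047875-2047882. ACGTG lay in the DDIT4 window at chr10:72273799-72273803 and within the CACGTG of TSC2. The windows of SESN1, SESN2, SESN3 and TSC1 held none of the 4 motifs, which says only that these letters were not in these bases. From chromatin immunoprecipitation, the paper reports that MITF, TFEB and TFE3 each bind SESN2 and DEPTOR. The sites it gives hold CACGTG in SESN2 and CATGTG in DEPTOR. Bases outside the windows were not searched here, so TSC2 is not singled out as a target of these factors. The genes lie at chr6:108984309-109094846 on the - strand (SESN1), chr1:28259518-28282491 on the + strand (SESN2), chr11:95165513-95232541 on the - strand (SESN3), chr10:72273919-72276036 on the + strand (DDIT4), chr9:132891348-132946874 on the - strand (TSC1), chr16:2047967-2089491 on the + strand (TSC2), chr19:49869033-49878459 on the - strand (AKT1S1) and on chromosome 8 (DEPTOR), per GENCODE on hg38.

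Starvation in HBSS was the first question. The study grew its melanoma lines in medium with serum and does not state whether serum was added to the HBSS. Loss of amino acids and any loss of serum thus cannot be told apart here. In HBSS, 7 of the 8 brakes rose and none fell, against 48.3% of all tested genes that passed and 23.6% that rose and 24.7% that fell, and 4 (SESN2, DDIT4, DEPTOR and TSC1) were called, against 13.1% of all genes. The median log2 fold change of the 8 was 0.81, that of all tested genes -0.03. The 2 HBSS libraries lay outside the range of the 3 WT libraries for all 8 members, which was also so for 63.1% of all genes. In these bulk libraries, a change in every cell and a change in the share of cells that hold the transcript cannot be told apart.

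SESN2, the sestrin with the best known leucine pocket, changed most. It stood at 19.9, 15.0 and 19.5 in the WT libraries and at 201.4 and 219.3 in HBSS. That is an 11.1-fold rise (log2 3.47 ± 0.201, limma adjusted p = 1.65e-19). The HBSS libraries held 875 and 1048 SESN2 reads against 76 to 121 in WT, so counting error is small beside the difference.

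SESN3 stood at 27.0, 29.7 and 20.9 in WT and at 42.6 and 36.4 in HBSS, a log2 rise of 0.60 ± 0.160 (limma adjusted p = 0.00156) that missed the threshold without WT HBSS replicate 1 (0.49, adjusted p = 0.0513). SESN1 stood at 8.38, 9.11 and 9.17 in WT and at 12.0 and 10.7 in HBSS. Its log2 fold change of 0.32 ± 0.227 did not pass (limma adjusted p = 0.258). The 3 sestrins therefore differed in size of response by the fit's own estimates, with SESN2 far ahead, but the differences between the genes were not tested.

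Reads from 3′ ends need no length correction, though capture may differ between genes, so the make-up of the sestrin reads is compared between groups and not read as molecules. SESN2 took 34.4% ± 5.87 (SD, n = 3) of the sestrin reads in WT and 78.7% and 82.3% in the 2 HBSS libraries. SESN3 went from 48.7% ± 6.51 to 16.6% and 13.7%, and SESN1 from 16.9% ± 1.66 to 4.68% and 4.01%. The summed value of the 3 genes was 49.6 to 55.2 in WT and 256 to 266 in HBSS. SESN2 thus took most of the sestrin reads in HBSS, and SESN3 had the highest mean share in each of the other 8 groups.

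DDIT4 stood at 44.2, 47.5 and 52.9 in WT and at 115 and 109 in HBSS, with no overlap. Its log2 fold change was 1.20 ± 0.127 (limma adjusted p = 4.25e-11). TSC1, the scaffold of the TSC complex, stood at 17.4, 20.0 and 19.5 in WT and at 38.2 and 40.6 in HBSS, a log2 rise of 1.02 ± 0.163 (limma adjusted p = 9.48e-07). No other group brought TSC1 above a mean of 26.1. TSC2, the subunit that acts on RHEB, stood at 17.9, 31.9 and 32.6 in WT and at 43.95 and 37.7 in HBSS. Its log2 rise of 0.60 ± 0.153 (limma adjusted p = 0.00106) was 0.33 (adjusted p = 0.0463) without WT replicate 1, the low library.

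DEPTOR was near the counting floor, with 5, 2 and 2 reads in the WT libraries (0.822, 0.396 and 0.390) and 4 and 22 reads in the HBSS libraries (0.920 and 4.60). The HBSS libraries thus differed widely from each other, and only the second was well above WT. The log2 fold change of 1.11 ± 0.347 (limma adjusted p = 0.00700) fell to 0.33 (adjusted p = 0.552) without WT HBSS replicate 2. AKT1S1 stood at 22.0, 25.9 and 20.7 in WT and at 31.8 and 29.1 in HBSS. Its log2 rise of 0.40 ± 0.157 (limma adjusted p = 0.0309) passed narrowly and missed the threshold without either HBSS library (0.34, adjusted p = 0.183, without replicate 1) or without WT replicate 1 or 3, and also whenever the shared column was kept (highest adjusted p = 0.0873).

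**Figure D1:**
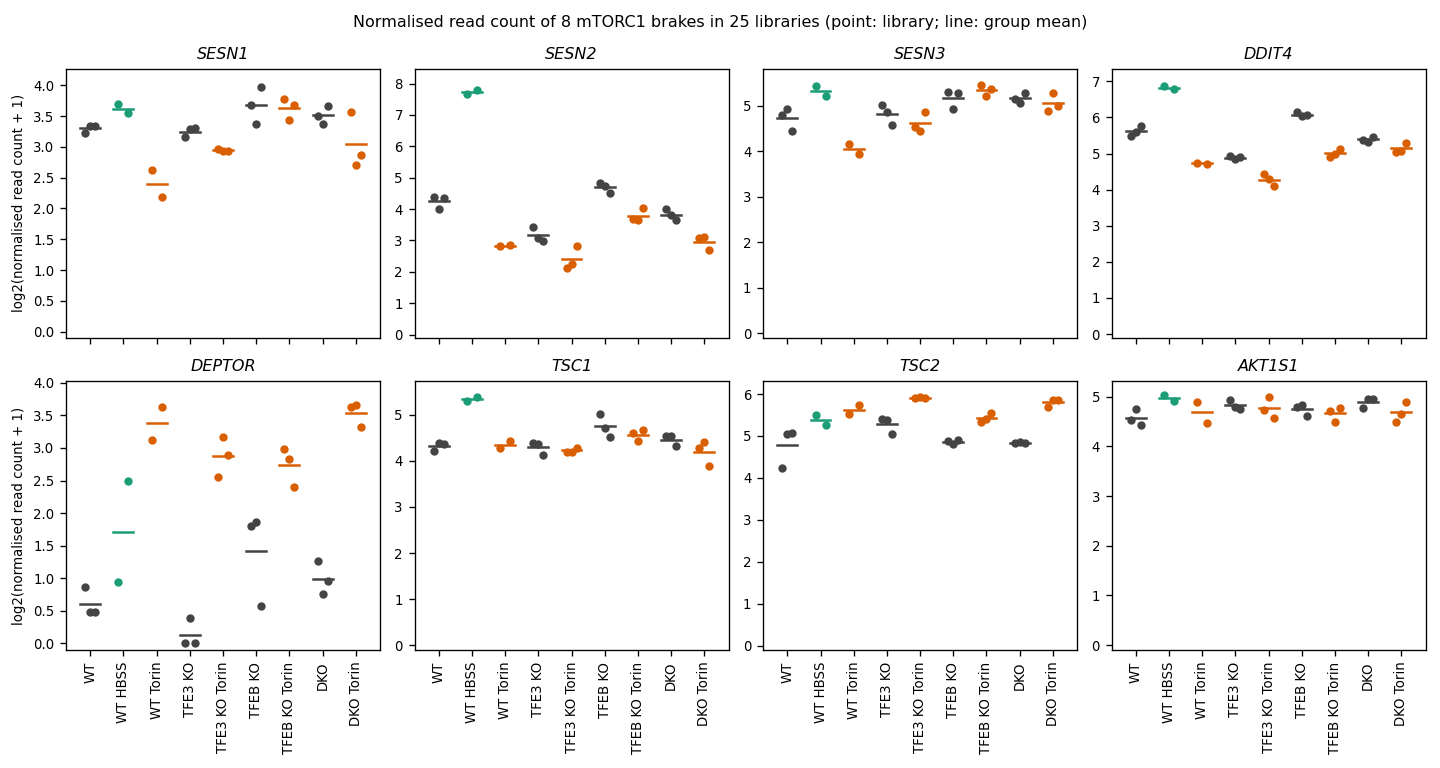
Level of each of the 8 brakes in 25 libraries, as log2(normalised read count + 1) on the y axis, with a panel per gene, the 9 groups on the x axis, a point per library and a line at the group mean (grey, no treatment; green, HBSS; orange, Torin). SESN2 at 201.4 and 219.3 in HBSS stands above all other libraries, DEPTOR is higher under Torin than in the untreated group of the same genotype in each of the 4 genotypes, and AKT1S1 stays within group means of 22.9 to 30.4.

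Inhibiting the kinase directly was the second question, and here the brakes parted. In WT cells under Torin, 4 members fell (SESN1, SESN2, SESN3 and DDIT4) and 2 rose (DEPTOR and TSC2), against 43.9% of all genes that passed, 20.5% higher and 23.4% lower. SESN2 and DEPTOR were called, against 9.66% of all genes. SESN2 stood at 6.09 and 6.16 under Torin, each 26 reads, below the lowest WT library at 15.0 (log2 -1.42 ± 0.201, limma adjusted p = 1.13e-07). DDIT4 stood at 25.8 and 25.1, also without overlap (log2 -0.89 ± 0.127, limma adjusted p = 1.15e-07).

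SESN3 stood at 16.9 and 14.5 under Torin, below all WT libraries (log2 -0.68 ± 0.160, limma adjusted p = 0.000547). SESN1 stood at 5.16 and 3.56, from 22 and 15 reads. Its log2 fold change of -0.90 ± 0.227 (limma adjusted p = 0.00108) was -0.68 (adjusted p = 0.0558) without WT Torin replicate 3. The summed sestrin value was 28.1 and 24.2 under Torin, and SESN2 made up 21.7% and 25.5% of the sestrin reads.

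DEPTOR stood at 7.73 and 11.4 under Torin, from 33 and 48 reads, against at most 0.822 in WT. Its log2 rise was 2.77 ± 0.347 (limma adjusted p = 6.31e-09). TSC2 stood at 45.0 and 52.1 (log2 0.84 ± 0.153, limma adjusted p = 1.27e-05). TSC1 at 18.3 and 20.4 and AKT1S1 at 28.8 and 21.3 overlapped the WT libraries, with log2 fold changes of 0.03 (adjusted p = 0.915) and 0.12 (adjusted p = 0.570).

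All these Torin values in WT cells rest on the 2 libraries left after the identical columns were taken out. Counted as a WT Torin library, the shared column, with SESN2 at 238, gave SESN2 a log2 fold change of 0.27 (adjusted p = 0.830) and left SESN1, SESN3 and DDIT4 short of the threshold, while DEPTOR and TSC2 still passed.

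Set directly against Torin, HBSS libraries were higher for SESN1, SESN2, SESN3, DDIT4 and TSC1 and lower for DEPTOR, so 6 of 8 members passed, against 49.2% of all genes (26.1% higher, 23.1% lower), and 5 were called (all of these but TSC1), against 16.6%. SESN2 differed by 4.89 ± 0.220 on the log2 scale (limma adjusted p = 2.52e-23), DDIT4 by 2.09 ± 0.139 (adjusted p = 3.21e-17), SESN3 by 1.28 ± 0.176 (adjusted p = 4.48e-08) and SESN1 by 1.22 ± 0.248 (adjusted p = 6.65e-05). Counting the shared column as WT Torin left SESN2 at 3.20 (adjusted p = 0.0247). The treatments did not overlap for any of the 8 members, as for 74% of all genes. DEPTOR was 1.66 lower in HBSS on the log2 scale (adjusted p = 0.000301), but -0.89 (adjusted p = 0.0910) without WT HBSS replicate 1. TSC2 (log2 -0.25, adjusted p = 0.229) and AKT1S1 (0.28, adjusted p = 0.173) did not pass.

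**Figure D2:**
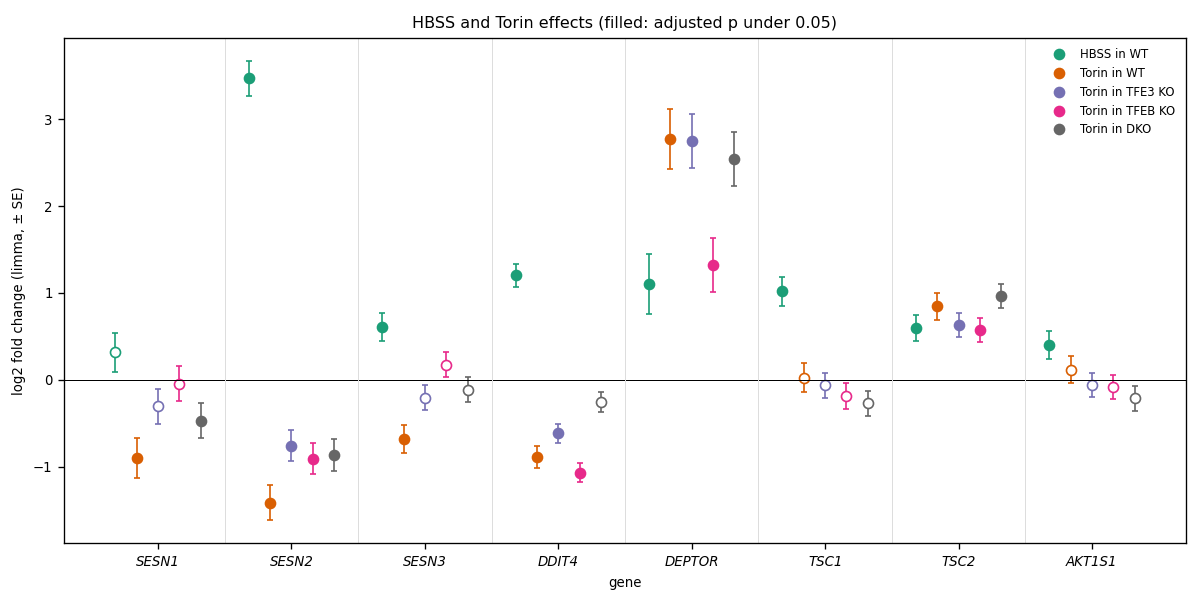
Log2 fold change of each brake (limma estimate, bars ± SE, y axis) in HBSS or Torin against the untreated group of the same genotype, with the 8 genes on the x axis; filled points passed at an adjusted p under 0.05. SESN2 is at 3.47 in HBSS and at -1.42 to -0.76 under Torin in the 4 genotypes, while DEPTOR is at 1.32 to 2.77 and TSC2 at 0.57 to 0.96 under Torin.

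The Torin response was measured again in the 3 knockout lines, each against its own untreated libraries. SESN2 was lower under Torin, and DEPTOR and TSC2 higher, in all 4 genotypes, where 14.2% of all genes passed as lower and 10.6% as higher in each of the 4. In TFE3 KO cells 4 of 8 members passed, 2 in each direction, against 51.4% of all genes (25.4% higher, 26% lower), and only DEPTOR was called, against 11.7%. In TFEB KO cells 4 passed, 2 in each direction, against 38.3% (17.4% higher, 21% lower), and DDIT4 and DEPTOR were called, against 5.02%. In DKO cells 4 passed, 2 in each direction, against 51.6% (25.4% higher, 26.2% lower), and only DEPTOR was called, against 11.1%.

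SESN2 went from 9.71, 7.51 and 6.86 to 3.39, 3.79 and 6.03 in TFE3 KO cells, a log2 change of -0.76 ± 0.180 (limma adjusted p = 0.000396). In TFEB KO cells it went from 27.6, 25.5 and 21.7 to 11.7, 11.6 and 15.3 (-0.91 ± 0.180, adjusted p = 6.45e-05). In DKO cells it went from 15.0, 13.1 and 11.6 to 7.38, 7.59 and 5.51 (-0.86 ± 0.180, adjusted p = 7.56e-05). The untreated and Torin libraries of a genotype did not overlap in any of these lines. The share of SESN2 in the sestrin reads was likewise lower under Torin in each line, at 18.1% against 12.4% in TFE3 KO, 34.7% against 20.1% in TFEB KO and 22.5% against 14.5% in DKO cells (means of 3).

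DDIT4 fell in TFE3 KO cells from 29.5, 27.8 and 28.7 to 20.8, 18.5 and 16.0 (log2 -0.62 ± 0.113, limma adjusted p = 1.02e-05). In TFEB KO cells it fell from 69.7, 64.3 and 65.5 to 29.1, 30.8 and 33.8 (-1.07 ± 0.113, adjusted p = 1.28e-10). In DKO cells it stood at 40.8, 39.2 and 43.4 untreated and at 32.0, 32.8 and 38.4 under Torin, a log2 difference of -0.25 ± 0.113 that did not pass (adjusted p = 0.0558), although the libraries did not overlap.

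DEPTOR was at 0, 0.307 and 0 in the untreated TFE3 KO libraries, from 0, 2 and 0 reads, and at 4.88, 8.02 and 6.45 under Torin, which is at least 13.3-fold higher against the mean value of 3 reads per library. In DKO cells it went from 1.40, 0.697 and 0.939 to 11.4, 11.6 and 9.05 (log2 2.54 ± 0.310, limma adjusted p = 1.98e-09). In TFEB KO cells it went from 2.50, 2.62 and 0.497 to 6.90, 6.13 and 4.28 (1.32 ± 0.310, adjusted p = 0.000592). Every Torin library of the 4 genotypes thus held at least 21 DEPTOR reads and every untreated library at most 14.

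TSC2 went from 41.3, 40.8 and 32.3 to 58.7, 59.7 and 59.1 in TFE3 KO cells (log2 0.63 ± 0.137, limma adjusted p = 0.000138). It went from 28.2, 26.8 and 29.0 to 39.5, 41.5 and 45.4 in TFEB KO cells (0.57 ± 0.137, adjusted p = 0.000780), and from 27.6, 27.9 and 27.4 to 50.6, 56.9 and 57.3 in DKO cells (0.96 ± 0.137, adjusted p = 7.48e-08). The 3′ end of TSC2 overlaps that of PKD1 on the other strand by 784 bases, and whether the counting used the strand is not stated, so reads of the pair may be shared. PKD1 was lower than TSC2 in each group mean, at 12.5 to 20.5. It rose under Torin by 0.51 (adjusted p = 0.0485) in WT and 0.66 (adjusted p = 0.00346) in DKO cells, and its 0.30 (adjusted p = 0.183) in TFE3 KO and 0.26 (adjusted p = 0.299) in TFEB KO cells did not pass. The part of shared reads in the TSC2 result was not tested.

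TSC1 and AKT1S1 passed in none of the 4 Torin comparisons, by limma, edgeR or DESeq2, with log2 fold changes of -0.27 to 0.03 and -0.21 to 0.12. SESN3 lies within the span of the long non-coding RNA LNCRNA-IUR on the opposite strand. SESN1 passed in WT and, narrowly, in DKO cells (10.3, 9.41 and 11.7 against 10.9, 5.50 and 6.30, log2 -0.47 ± 0.203, limma adjusted p = 0.0493). In DKO cells the libraries overlapped, and SESN1 did not pass with edgeR (adjusted p = 0.123) or DESeq2 (adjusted p = 0.139).

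Differences between genotypes in the Torin response were tested as interactions. SESN3 alone passed, and only for TFEB KO against WT, where 1.16% of all genes did. Its log2 Torin response was 0.17 ± 0.143 in TFEB KO cells (38.5, 29.6 and 38.0 untreated against 43.1, 36.1 and 40.1) and -0.68 in WT, a difference of 0.85 ± 0.215 (limma adjusted p = 0.0343), and edgeR and DESeq2 gave the same gene. It missed the threshold without WT replicate 1 or 2, either WT Torin library, TFEB KO replicate 2 or TFEB KO Torin replicate 1 or 3, at 0.73 to 0.95, and with the shared column counted as WT Torin (0.45, adjusted p = 0.661). No member passed for TFE3 KO (limma, 0 of 8, with 1.06% of all genes) or DKO cells (0 of 8, with 0.506%). At an unadjusted p under 0.05 there were 2 members for TFE3 KO and 3 for DKO cells, and edgeR and DESeq2 also passed 0. The closest was DDIT4 in DKO cells, with a difference of 0.64 ± 0.170 (adjusted p = 0.0725).

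**Figure D3:**
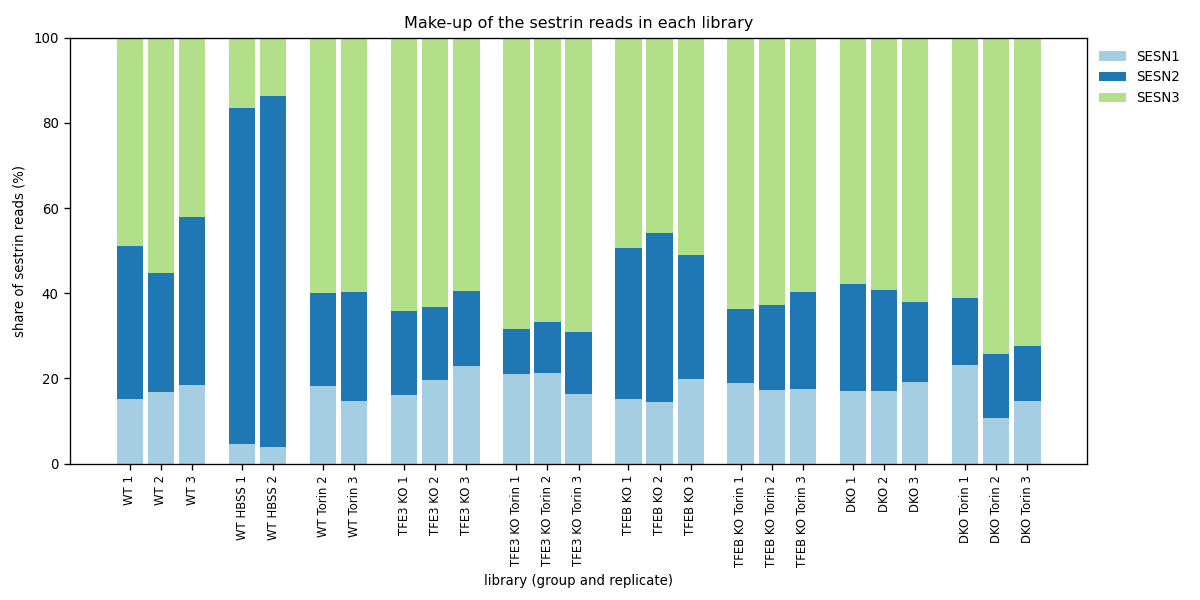
Share of SESN1, SESN2 and SESN3 in the summed sestrin reads of each library, in percent on the y axis, with the 25 libraries on the x axis by group. SESN2 makes up 78.7% and 82.3% in the HBSS libraries, 10.5% to 14.7% in the TFE3 KO Torin libraries, and at most 39.5% outside HBSS.

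The knockouts without drug addressed the roles of TFE3 and TFEB in fed cells. In TFE3 KO cells SESN2 and DDIT4 were lower than in WT and TSC2 higher, so 3 of 8 members passed, against 9.41% of all genes (3.57% higher, 5.84% lower), and SESN2 was called, against 1.52%. SESN2 at 6.86 to 9.71 lay below WT at 15.0 to 19.9 (log2 -1.09 ± 0.180, limma adjusted p = 1.61e-05). DDIT4 at 27.8 to 29.5 lay below WT at 44.2 to 52.9 (-0.73 ± 0.113, adjusted p = 5.08e-06). TSC2 was 0.50 ± 0.137 higher (adjusted p = 0.0123), with overlapping libraries, and 0.23 higher (adjusted p = 0.309) without WT replicate 1. It also missed the threshold without TFE3 KO replicate 1 or 2, and with only the libraries compared (limma adjusted p = 0.163).

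In TFEB KO cells 3 members passed, all higher than WT, against 14.6% of all genes (7.46% higher, 7.18% lower), and none was called, against 1.67%. DDIT4 at 64.3 to 69.7 lay above every WT library (log2 0.46 ± 0.113, limma adjusted p = 0.00376). SESN3 was 0.44 ± 0.143 higher (adjusted p = 0.0296) with overlap, and TSC1 at 21.9 to 31.2 was 0.43 ± 0.146 higher (adjusted p = 0.0385). SESN3 no longer passed without WT replicate 3 (0.30, limma adjusted p = 0.222) or without TFEB KO replicate 1 or 3. TSC1 no longer passed without TFEB KO replicate 1 (0.30, adjusted p = 0.247) or 2, or without WT replicate 1, 2 or 3. It also missed the threshold with only the libraries compared (limma adjusted p = 0.0645). SESN2 at 21.7 to 27.6 also lay above every WT library, but its 0.44 ± 0.180 did not pass with limma (adjusted p = 0.0916), whereas it did with edgeR and DESeq2. In DKO cells SESN3 alone passed, against 13.1% of all genes (5.64% higher, 7.49% lower), at 0.44 ± 0.143 (adjusted p = 0.0316), and it missed the threshold at 0.30 (adjusted p = 0.252) without WT replicate 3. It also missed without DKO replicate 1 or 3, and with only the libraries compared (limma adjusted p = 0.0558). No member was called in DKO cells, against 1.82% of all genes.

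The 2 single knockouts differed from each other in 5 members, 1 higher and 4 lower in TFE3 KO, against 29.9% of all genes (14.3% higher, 15.6% lower), and in 3 called ones, against 4.05%. SESN2 (log2 -1.53 ± 0.180, limma adjusted p = 3.61e-09) and DDIT4 (-1.19 ± 0.113, adjusted p = 1.22e-11) were lower in TFE3 KO than in TFEB KO cells, with WT between them in each case. DEPTOR was at or under 3 reads in all 3 TFE3 KO libraries and at 11, 14 and 3 reads in TFEB KO libraries. Its log2 difference was -1.29 ± 0.310 (limma adjusted p = 0.00117). TFEB KO replicate 3, at 3 reads, was itself at the counting floor. TSC1 was 0.46 lower (adjusted p = 0.0135) and TSC2 0.42 higher (adjusted p = 0.0155) in TFE3 KO cells. TSC1 no longer passed without TFEB KO replicate 1 (-0.33, limma adjusted p = 0.130) or TFE3 KO replicate 3. TSC2 no longer passed without TFE3 KO replicate 1 (0.36, adjusted p = 0.0800) or 2, or without TFEB KO replicate 2.

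DKO cells lay between the single knockouts for SESN2 and DDIT4. SESN2 at 11.6 to 15.0 and DDIT4 at 39.2 to 43.4 were above every TFE3 KO library and below every TFEB KO library. Against TFE3 KO the log2 difference was 0.66 ± 0.180 (limma adjusted p = 0.0185) for SESN2 and 0.51 ± 0.113 (adjusted p = 0.00284) for DDIT4, in a comparison where 3 members passed, against 4.87% of all genes (2.65% higher, 2.22% lower), and none was called, against 0.743%. SESN2 missed the threshold without TFE3 KO replicate 2 or 3 or DKO replicate 1 or 2 (0.57 to 0.66). The third was TSC2, lower by -0.44 (adjusted p = 0.0479), which did not pass in 17 of 25 fits that each left out 1 library, such as those without TFE3 KO replicate 1 (-0.38, adjusted p = 0.209) or 2 or any DKO library, nor at a pseudocount of 0.1 or without the filter on low values. Against TFEB KO the difference was -0.87 ± 0.180 (adjusted p = 0.000220) for SESN2 and -0.68 ± 0.113 (adjusted p = 8.00e-06) for DDIT4, the 2 members that passed, against 25.5% of all genes (11.8% higher, 13.7% lower), and none was called, against 3.1%. The test of departure from additivity, DKO minus each single knockout plus WT, passed for 0 of 8 members (limma; 3.98% of all genes), with 1 at an unadjusted p under 0.05 and 0 by edgeR and DESeq2. The largest departure was -0.52 ± 0.194 for TSC2 (limma adjusted p = 0.130). Additivity is read as if TFE3 KO cells kept their TFEB. TFEB mRNA, near the counting floor, did not differ between DKO and TFE3 KO cells (log2 0.03 ± 0.321, limma adjusted p = 0.981). The paper reports moderately lower TFEB in its TFE3 KO cells by western blot. The part of this in the results was not tested.

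**Figure D4:**
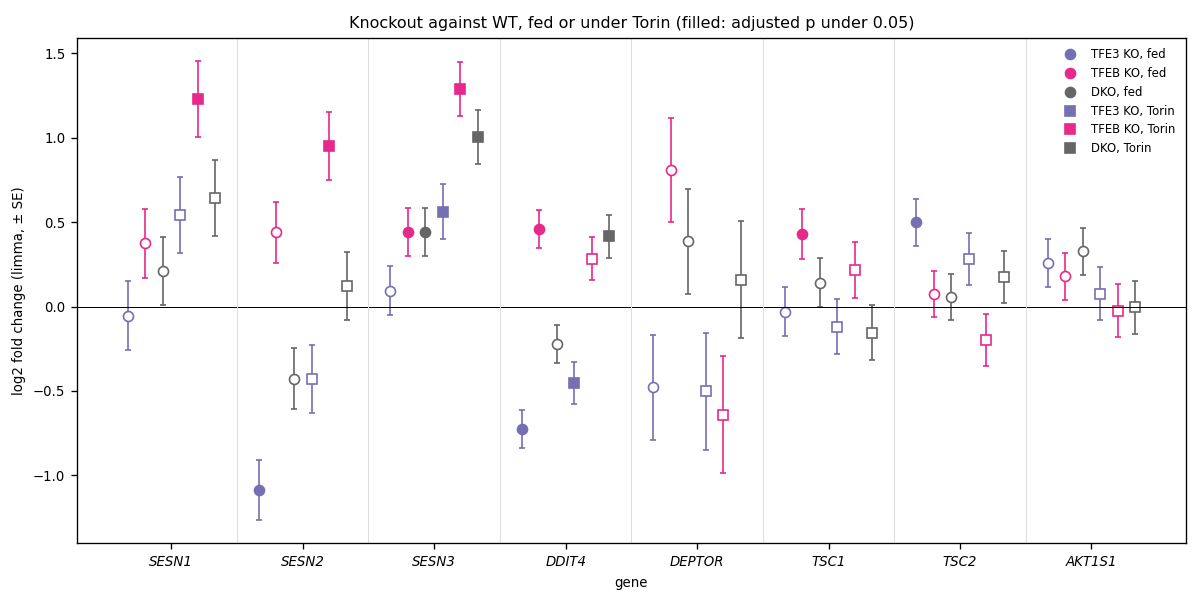
Log2 fold change of each brake (limma estimate, bars ± SE, y axis) in each knockout line against WT, untreated (circles) or both under Torin (squares), with the 8 genes on the x axis; filled points passed at an adjusted p under 0.05. Untreated, SESN2 and DDIT4 are at -1.09 and -0.73 in TFE3 KO cells and at 0.44 and 0.46 in TFEB KO cells, and under Torin SESN3 is above WT in all 3 lines, at 0.56 to 1.29, with the shared column left out.

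Set against WT under Torin, SESN3 was higher in all 3 knockout lines, at 22.0, 20.9 and 28.3 in TFE3 KO, 43.1, 36.1 and 40.1 in TFEB KO and 28.8, 37.9 and 30.9 in DKO cells, against 16.9 and 14.5 in WT. No library of a knockout line overlapped WT. The log2 differences were 0.56 ± 0.160 (limma adjusted p = 0.0167), 1.29 ± 0.160 (adjusted p = 6.96e-08) and 1.003 ± 0.160 (adjusted p = 1.28e-05). These 3 comparisons share the 2 WT Torin libraries. In the first, SESN3 missed the threshold without WT Torin replicate 3 (0.46) or TFE3 KO Torin replicate 3 (0.44, limma adjusted p = 0.115). Counted as a WT Torin library, the shared column, with SESN3 at 36.9, ended the lack of overlap, left 0.17 (adjusted p = 0.637) in TFE3 KO and gave 0.61 (adjusted p = 0.0480) in DKO cells.

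In TFEB KO cells under Torin SESN1 (12.8, 9.89 and 11.8 against 5.16 and 3.56 in WT, log2 1.23 ± 0.227, limma adjusted p = 9.14e-05) and SESN2 (11.7, 11.6 and 15.3 against 6.09 and 6.16, log2 0.95 ± 0.201, adjusted p = 0.000590) were higher too. So 3 members passed, all higher, against 18% of all genes (9.39% higher, 8.56% lower), and SESN1 and SESN3 were called, against 2.44%. In TFE3 KO cells 2 passed, against 9.64% (3.41% higher, 6.23% lower), and in DKO cells 2, both higher, against 12.1% (5.03% higher, 7.03% lower). The other member in each was DDIT4, at -0.45 ± 0.127 in TFE3 KO (adjusted p = 0.0148) and at 0.42 ± 0.127 in DKO cells (adjusted p = 0.0227). Both DDIT4 results missed the threshold without either WT Torin library, and without replicate 3 of the knockout line under Torin. In DKO cells SESN3 was called, against 2.37% of all genes, and in TFE3 KO cells none was, against 1.94%. With the shared column counted as WT Torin, SESN2 turned to -0.74 (adjusted p = 0.625) in TFEB KO and DDIT4 to -0.24 (adjusted p = 0.601) in DKO cells, while DDIT4 in TFE3 KO cells went to -1.11 (adjusted p = 0.0181).

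Ordered by level, DDIT4 was the most steadily graded member, with 2 of 8 neighbouring pairs of groups overlapping: WT HBSS (112), TFEB KO (66.5), WT (48.2), DKO (41.1), DKO Torin (34.4), TFEB KO Torin (31.2), TFE3 KO (28.6), WT Torin (25.5) and TFE3 KO Torin (18.4). The overlaps were DKO Torin with TFEB KO Torin and the latter with TFE3 KO. SESN2 followed WT HBSS (210), TFEB KO (24.9), WT (18.1), DKO (13.2), TFEB KO Torin (12.9), TFE3 KO (8.03), DKO Torin (6.83), WT Torin (6.13) and TFE3 KO Torin (4.40). Its overlapping neighbours were DKO with TFEB KO Torin, TFE3 KO with DKO Torin, and DKO Torin with WT Torin.

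DEPTOR had the 4 Torin groups at the top, DKO (10.7), WT (9.56), TFE3 KO (6.45) and TFEB KO (5.77), all neighbours overlapping, then WT HBSS (2.76), TFEB KO (1.88), DKO (1.01), WT (0.536) and TFE3 KO (0.102), of which only WT and TFE3 KO did not overlap. The lowest of these WT libraries and the highest of these TFE3 KO libraries each held 2 reads, and the difference did not pass (log2 -0.48 ± 0.310, limma adjusted p = 0.390). TSC2 was highest in TFE3 KO Torin (59.2), which overlapped no neighbour, then DKO Torin (54.9), WT Torin (48.6), TFEB KO Torin (42.1), WT HBSS (40.8), TFE3 KO (38.1), TFEB KO (28.0), DKO (27.6) and WT (27.5). SESN3 ran from 39.8 in TFEB KO Torin to 15.7 in WT Torin, and only the last step, from TFE3 KO Torin (23.8), was without overlap. SESN1 ran from 12.0 in TFEB KO to 4.36 in WT Torin, with 6 of 8 neighbouring pairs overlapping. TSC1 stood at 39.4 in WT HBSS and from 26.1 to 17.4 in the other groups, which all overlapped their neighbours. AKT1S1 spanned 0.40 on the log2 scale over the 9 groups, and all 8 neighbouring pairs overlapped.

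Across the 25 libraries SESN2 and DDIT4 had a Pearson r of 0.910 on log2(value + 1), and 0.878 over the 23 libraries without HBSS. TSC2 had an r of -0.39 with SESN2, and of -0.81 without the HBSS libraries. DEPTOR and TSC2 had an r of 0.67. Points share groups and treatments, so these are descriptions only. Among 9849 genes with a mean of at least 5, those most like SESN2 were GOT1 (r = 0.960), the aspartate aminotransferase of the cytosol, SLC7A1 (0.958), a carrier of arginine and lysine, and LAPTM4A (0.953). Those most like DDIT4 were SCD (0.943), the stearoyl-CoA desaturase, RTN4R (0.907) and NCALD (0.906).

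DEPTOR was most like BCKDHA (0.948), a subunit of the branched-chain ketoacid dehydrogenase, C16orf58 (0.929) and H6PD (0.927). TSC1 was most like IPMK (0.931), an inositol polyphosphate kinase, ZBTB43 (0.922) and DYNC1LI2 (0.918), and TSC2 most like ARID4A (0.937), PCED1A (0.937) and NUMA1 (0.929). The closest patterns to SESN1 (PYGO1 0.845, NEK7 0.830, MCFD2 0.820) and SESN3 (PI4K2A 0.807, SIX4 0.802, CCDC186 0.766) were less alike. AKT1S1, which spanned under 1 on the log2 scale, was not searched.

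The rest of the pathway was described with lists written with results of these data known. In HBSS, where 23.6% of all genes rose and 24.7% fell, 0 of 5 mTORC1 subunits rose and 1 fell, 1 of 3 TSC and RHEB partners rose, 0 of 7 GATOR1 and KICSTOR genes rose and 1 fell, and 0 of 5 GATOR2 genes rose and 1 fell. Of 6 other amino acid sensors 1 rose and 1 fell. None of these genes was called in HBSS, against 13.1% of all genes. Under Torin in WT, where 20.5% of all genes rose and 23.4% fell, 2 of the mTORC1 subunits fell, 1 TSC and RHEB partner fell, 1 GATOR1 and KICSTOR gene rose, 1 GATOR2 gene rose and 2 fell, and 2 sensors rose and 3 fell. GATSL2 (CASTOR2), a partner in arginine sensing, was the only one of them called, against 9.66% of all genes, from 7.75 to 2.60 (log2 -1.28 ± 0.296, limma adjusted p = 0.000415).

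Of 12 Rag, Ragulator and FLCN complex genes of the lysosomal platform 6 rose and 3 fell in HBSS, against 23.6% and 24.7% of all genes, and 3 were called, all higher, against 13.1% called in either direction. Their median log2 fold change was 0.49, that of all genes -0.03. FNIP2 rose from 72.6 to 220 (log2 1.59 ± 0.109, limma adjusted p = 5.56e-17) and FNIP1 from 14.5 to 43.5 (1.52 ± 0.195, adjusted p = 7.21e-09), both partners of FLCN. Under Torin in WT 2 of the 12 rose and 1 fell, against 20.5% and 23.4% of all genes, and none was called, against 9.66%. Of 18 upstream kinases and phosphatases, 5 rose and 1 fell in either treatment. The shares of all genes were 23.6% and 24.7% in HBSS and 20.5% and 23.4% under Torin. PRKAB2, a subunit of the energy sensor AMPK, rose in HBSS from 21.8 to 93.1 (2.04 ± 0.132, adjusted p = 6.97e-18), and IRS2, the insulin receptor substrate, rose in both, from 428 to 1011 in HBSS and to 978 under Torin.

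Of 10 mTORC1 substrates, 5 rose and none fell in HBSS, against 23.6% and 24.7% of all genes. Under Torin in WT 2 rose and 3 fell, against 20.5% and 23.4% of all genes. PDCD4, a translation inhibitor that S6K marks for destruction, rose in both, by 1.45 ± 0.107 in HBSS (limma adjusted p = 7.21e-16) and by 1.69 ± 0.107 under Torin (adjusted p = 8.43e-18). GRB10 rose in HBSS (1.01 ± 0.119, adjusted p = 8.47e-10).

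Gene lists for the factors known to induce the brakes stood as follows in HBSS, where 23.6% of all genes rose, 24.7% fell and 13.1% were called, with a median log2 fold change of -0.03. Of 14 measured genes of the ATF4 list, which includes ATF4 itself and neither SESN2 nor DDIT4, 13 rose, none fell and 10 were called, with a median log2 fold change of 1.74. CHAC1, a glutathione-degrading enzyme, rose from 8.15 to 101 and ATF3 from 7.87 to 39.2. Of 15 FOXO targets 11 rose and 1 fell (median 0.94), with KLHL24 from 25.5 to 238 and FBXO32 from 38.5 to 129. IRS2 and INSR stand in both the FOXO and the upstream kinase list. Of 16 p53 targets 6 rose and 5 fell (median -0.07), although BBC3, the death gene PUMA, rose from 27.8 to 512. Of 17 hypoxia genes 5 rose and 6 fell (median -0.11), with VEGFA from 16.6 to 59.5 among those that rose.

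Under Torin in WT, where 20.5% of all genes rose and 23.4% fell, 2 of the 14 ATF4 list genes rose and 8 fell (median -0.29), with PSAT1, an enzyme of serine synthesis, from 22.2 to 5.30 and MTHFD2, of mitochondrial folate metabolism, from 149 to 55.9. Of the 15 FOXO targets 11 were higher and 2 lower (median 1.07), and whether FOXO factors had a part in the lower SESN3 was not tested. The hypoxia list had 3 higher and 6 lower (median -0.27), and the p53 list 4 and 4 (median -0.07).

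In fed TFE3 KO cells, where SESN2 and DDIT4 were lower, 9 of the 14 ATF4 list genes were lower and 1 was higher than in WT (median -0.52), against 5.84% lower and 3.57% higher of all genes. That gene was ATF4 itself, named here after its values were seen, at 452 ± 12.1 (SD, n = 3) against 394 ± 11.1 (log2 0.20 ± 0.0641, limma adjusted p = 0.0378). Against TFEB KO cells the counts were also 9 lower and 1 higher (15.6% and 14.3% of all genes), with ATF4 mRNA 0.39 ± 0.0641 higher in TFE3 KO cells (adjusted p = 3.92e-06). In fed TFEB KO cells 1 gene of the list was higher and 2 were lower than in WT (median -0.04), against 7.46% and 7.18% of all genes. In DKO cells 8 were lower and none higher than in WT (median -0.38), against 7.49% and 5.64% of all genes. The activity of the ATF4, FOXO, p53 and hypoxia factors was not measured. Their part in the results on the brakes was not tested.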

How the data were processed

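Total RNA was prepared by the authors as QuantSeq Forward 3′ end libraries from poly(A) RNA. Per the study's methods, reads were poly(A)-trimmed, mapped to hg38 with STAR (version 2.7.8a, per the submitters' processing notes) before normalisation with edgeR. Each deposited value is a normalised signal of a gene symbol on a CPM scale. The counter, its use of strand and the gene filter are not given in the sources used here. All values were whole multiples of 1 step per library (tolerance 0.01 reads, 100% of values), so reads were recovered by division.

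A gene was tested if 3 or more libraries reached a value of 1 (13052 genes, with 471 left out). log2(value + 1) was fitted with limma 3.58.1 (trend and robust eBayes, R 4.3.3) in 1 model over 25 libraries with 9 group means and 19 contrasts. p-values are 2-sided. The identical columns were left out of both groups. The scripts were tested on simulated data. The alternatives included edgeR 4.0.16 and DESeq2 1.42.0 on the recovered reads, which are not counts as deposited, and 25 leave-one-out fits.

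The 8 genes and the 14 lists were chosen with earlier results of these data known. Other genes are named by rule: the 3 most like each member (mean of at least 5, log2 span over groups of at least 1), at most 2 called genes per list in HBSS and Torin, TFE3, TFEB and MITF, and genes with a 3′ end within 1000 bases of a member's or that span it, of which 1 is not reported here.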

Additional observations from a re-analysis of the deposited data

Results flagged for a closer look

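SESN3 is listed because its Torin response differed between TFEB KO and WT cells by a test of the difference itself, by 0.8488 on the log2 scale (limma adjusted p = 0.0343). With the shared column counted as WT Torin the difference was 0.45 (adjusted p = 0.661).

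The column deposited as both WT HBSS replicate 3 and WT Torin replicate 1 entered no comparison, and its values are listed because 6 members stood above every untreated WT library there. SESN2 was at 238, above both HBSS libraries (201.4 and 219.3), and DDIT4 was at 102.6, between the WT (44.2 to 52.9) and HBSS (109 and 115) libraries. SESN1 was at 10.98, SESN3 at 36.93 and DEPTOR at 4.356, each within the range of the 2 HBSS libraries and outside that of the 2 WT Torin libraries. TSC1 was at 32.57, below both HBSS libraries (38.2 and 40.6) and above both WT Torin libraries (18.3 and 20.4). Which of the labels the column belongs to cannot be told from the labels, and no group was assigned from its values.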

How the results depend on the processing

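Of 1925 values recomputed for the 56 member results that passed, 1811 kept direction and side of the threshold, 108 kept direction but no longer passed, and 6 turned. Many of these values come from fits without a library of neither group compared. Such a fit keeps the fold change and alters only the shared estimate of the spread, so the 1811 do not measure how stable the results are. The cause of each change was not tested unless named. The replicate numbers did not pair the libraries (median r of deviations 0.00667 for the same number, with 4 of 92 pairs over 0.1, and -0.00218 for different numbers). With the replicate block, 0 members were called for DKO Torin against WT Torin in place of 1, and no other count of called members moved by over 1.5 times.

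With the identical column counted as WT Torin, alone or in both groups, called members went from 2 to 1 for WT Torin against WT, from 0 to 1, from 2 to 0 and from 1 to 0 for TFE3 KO, TFEB KO and DKO against WT under Torin, and from 5 to 3 for WT HBSS against WT Torin. SESN2 turned to 0.2738 (adjusted p = 0.830 or 0.825) in WT Torin against WT and to -0.7388 (0.625 or 0.612) in TFEB KO against WT under Torin, and DDIT4 to -0.2411 (0.601 or 0.593) in DKO against WT under Torin. With only the libraries compared, WT Torin against WT gave 1 called member. A pseudocount of 0.1 gave 2 for TFE3 KO against WT and 1 for DKO against TFE3 KO (0 before), as did edgeR for the latter. edgeR and DESeq2 gave 2 for DKO Torin against DKO (1 before), and DESeq2 1 for TFEB KO against WT (0 before).

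Leaving out each library in turn gave 2 to 4 called members for HBSS (2 without WT HBSS replicate 2), 1 to 3 for TFEB KO Torin against TFEB KO (1 without TFEB KO replicate 3), 1 to 2 for DKO Torin against DKO (2 without DKO Torin replicate 1), 0 to 1 for TFE3 KO against WT (0 without TFE3 KO replicate 3), 0 to 1 for TFEB KO against WT and for its Torin response against that of WT (1 without TFEB KO replicate 3 in either), and 0 to 1 for DKO Torin against WT Torin (0 without WT Torin replicate 3 or DKO Torin replicate 2). A WT HBSS or WT Torin group left with 1 library is assumed to vary like the others.

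DEPTOR, the member with the fewest reads, took its size from the setting, at 2.36 in HBSS, 4.16 under Torin in WT, 5.93 under Torin in TFE3 KO and -4.08 in TFE3 KO against TFEB KO with DESeq2, where limma gave 1.11, 2.77, 2.75 and -1.29. Called genes over the whole table moved by over 1.5 times with the column counted as WT Torin (1261 to 799 for WT Torin against WT, 2165 to 666 for WT HBSS against WT Torin, 253 to 410 and 309 to 531 for TFE3 KO and DKO against WT under Torin, 36 to 9 and 27 to 1 for the Torin response of TFE3 KO and TFEB KO minus WT), with edgeR (655 to 1023 for TFEB KO Torin, 237 to 367 for DKO against WT, 529 to 796, 97 to 163 and 405 to 611 among the knockouts), with DESeq2 (97 to 150 for DKO against TFE3 KO, 36 to 19 for the Torin response of TFE3 KO minus WT), with a pseudocount of 0.1 (237 to 375 for DKO against WT, 97 to 164 for DKO against TFE3 KO), with only the libraries compared (253 to 155 for TFE3 KO against WT under Torin), and with a minimum value of 5 (218 to 145 for TFEB KO against WT, and 253 to 162, 318 to 190 and 309 to 194 for TFE3 KO, TFEB KO and DKO against WT under Torin). With the column in both groups the counts moved likewise, to 598 for WT HBSS against WT Torin and 16 for the Torin response of TFE3 KO minus WT.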
